A study of Mus musculus with 9 samples.

Results

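The genes described here encode the proteins of oxidative phosphorylation, in the nucleus and on the mitochondrial chromosome. Members were chosen by gene name: the Nduf subunits of complex I, Sdha to Sdhd, the Uqcr genes, Cyc1, Cycs, the Cox4 to Cox8 genes, the Atp5 genes and the protein-coding genes of the mitochondrial chromosome. Of 106 rows with such a name, 5 were named as pseudogenes and dropped, and 97 of the remaining 101 passed the filter of at least 1 TPM (transcript abundance scaled to a fixed total per library) in at least 3 of 9 libraries. They are 97 of the 15837 rows that passed it in the whole data set, which lists 54986. The 97 rows stand for 94 genes, since Atp5a1, Ndufs3 and Uqcrc1 each have a second row on a patch scaffold of the assembly. Of the rows, 84 are nuclear and 13 mitochondrial.

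RNA-seq of total RNA was available for primary embryonic fibroblasts of C57BL/6 mice, in 3 groups of 3 libraries. The first group overexpressed Zscan4f, a zinc finger gene known from the early mouse embryo and embryonic stem cells. The second overexpressed Zscan4f3A, by its label a variant of that gene whose sequence the sources used here do not give. In the third, called control here, the titles name no overexpressed gene and no empty vector. Libraries of all groups carry the label D4-OSKM-2ndMEFs, so the reprogramming factor set OSKM belongs to the control cells as well. The meaning of D4 and the way in which the genes were introduced are not given, and nothing says whether replicates came from separate cultures, so p-values measure the spread between these libraries.

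Oxidative phosphorylation moves electrons from NADH and succinate to oxygen through complexes I to IV of the inner mitochondrial membrane, with coenzyme Q and cytochrome c as carriers. The proton gradient built by complexes I, III and IV drives ATP synthesis in complex V. Complex II is made by nuclear genes alone, while the other complexes join nuclear subunits with core subunits that the mitochondrial chromosome encodes and that are transcribed as long polycistronic RNAs.

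Several results below turn on mt-Atp6, which encodes subunit a of complex V, the part of the membrane sector through which protons pass. Its reading frame begins inside that of mt-Atp8, another membrane subunit, and both lie on the same messenger RNA. The window chrM:7897-7999 (GRCm38, plus strand) is shown because it holds this overlap; capitals mark the 43 bases that are annotated to both genes.
mt-Atp8/mt-Atp6 window: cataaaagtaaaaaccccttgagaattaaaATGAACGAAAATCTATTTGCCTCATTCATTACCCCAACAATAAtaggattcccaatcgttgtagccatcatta
A nuclear locus, Gm10925 (chr1:24613974-24614651, minus strand, listed in the files as RP23-8J15.3), has the same letters as mt-Atp6 over all 678 of its bases. The 3' ends of both are shown since they are the place where the annotated sequences differ, and capitals mark the 3 bases of mt-Atp6 that the annotated Gm10925 does not hold.
mt-Atp6, chrM:8548-8607: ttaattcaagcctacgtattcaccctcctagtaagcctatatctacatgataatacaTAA
Gm10925, chr1:24613974-24614030: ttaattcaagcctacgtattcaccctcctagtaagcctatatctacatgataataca
A read from within these 678 bases therefore carries nothing in its own sequence that tells the loci apart.

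Estimated aligned sequence was 7.479 to 8.394 gigabases in the Zscan4f libraries, 3.311 to 8.378 in the Zscan4f3A libraries and 6.604 to 8.262 in the control libraries. The lowest, Zscan4f3A replicate 3, was also the highest or lowest of the 9 libraries for 51 of 97 members (52.6%), against 32.4% of all genes tested. Zscan4f stood at 558 to 570.0 TPM in the Zscan4f libraries, at 654 to 836 in the Zscan4f3A libraries and at 0 to 0.960 in the control libraries. All 12 fibroblast markers passed the filter, with summed levels of 14300.5 to 14481, 14279 to 14612 and 14346 to 14394 TPM in the Zscan4f, Zscan4f3A and control groups. These near-equal sums hide single markers that differed in both directions. Means with Zscan4f and in controls were 1756 and 1236 TPM for Dcn and 5050 and 4260 for Col1a2. For Fn1 they were 1575 and 1965 TPM, and for Postn 625 and 763. Epithelial markers (Epcam, Cdh1, Krt8 and Krt18) summed to 107 to 114 TPM with Zscan4f, 41.6 to 44.3 with Zscan4f3A and 36.5 to 37.9 in controls, and all 4 passed the filter. Summed levels of endothelial markers, 45.7 to 46.9, 31.7 to 33.3 and 29.98 to 32.7 TPM in the same order, came almost wholly from Tek, with Cdh5 at most at 0.0496 TPM. Macrophage markers summed to 21.4 to 23.9, 15.6 to 17.4 and 14.6 to 16.9 TPM with Ptprc at most at 0.0843 TPM, skeletal muscle markers to 26.8 to 29.9, 21.9 to 24.9 and 18.8 to 22.1 TPM with Myod1 listed at 0, and heart markers to 10.8 to 13.1, 17.4 to 21.8 and 20.5 to 22.7 TPM with Myh6 at most at 0.0524 TPM. Brown fat markers summed to at most 0.941 TPM. Of these lists 1 of 4 endothelial, 2 of 5 macrophage, 2 of 5 skeletal muscle, 1 of 3 heart and 0 of 2 brown fat markers passed the filter. The part of these markers in the results below was not tested. In bulk RNA, fewer cells of a type and less RNA per cell cannot be told apart.

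Transcripts of the mitochondrial chromosome were far more abundant than those of the nuclear partners. The 13 mitochondrial genes, without the nuclear loci that match them, summed to 87407, 87893 and 87677 TPM in Zscan4f libraries, 95147, 95816 and 91821 in Zscan4f3A libraries and 96715, 90253 and 93638 in control libraries. The 84 nuclear rows summed to 14924, 15040.2 and 14917 TPM with Zscan4f, 14539, 14478 and 13952 with Zscan4f3A and 14506, 14404 and 14274 in controls. Thus the mitochondrial sum was lowest and the nuclear sum highest in the Zscan4f group, and in neither sum did its 3 libraries overlap those of another group. Without mt-Atp6 the mitochondrial sums were 85667, 86145 and 85931 TPM with Zscan4f, 85528, 86351 and 81875 with Zscan4f3A and 86708, 84442 and 86420 in controls, and all 3 groups overlapped. TPM adds up to the same total in each library, so a lower mt-Atp6 value raises every other gene a little. As a share of TPM outside the mitochondrial chromosome and its nuclear matches, the nuclear members took 1.73% ± 0.00873 in Zscan4f cells, 1.67% ± 0.0402 in Zscan4f3A cells and 1.67% ± 0.0176 in control cells (SD, n = 3 each).

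Levels within a complex were uneven, as the plot of levels by complex shows. TPM is per transcript length, so genes can be set side by side, save where near-identical loci may share their reads. Among nuclear genes, means over the 9 libraries had a median of 85.0 TPM in complex I, 166 in complex II, 144 in complex III, 205 in complex IV and 232 in complex V. The most abundant nuclear members were Atp5b, the catalytic beta subunit of complex V, at a mean of 914 TPM, and Ndufa4 at 907 TPM. Ndufa4 was first described as a complex I subunit, whence its name, and is now placed in complex IV. In complex I, Ndufa7 was the most and Ndufb2 the least abundant, with means of 234 and 21.1 TPM. Sdhb, the iron-sulfur subunit of complex II, averaged 191 TPM and Sdhc, a membrane anchor, 57.3 TPM. In complex III the extremes were Uqcrh, the hinge protein, at 312 TPM and Cyc1, which carries cytochrome c1, at 99.9 TPM. Atp5g1 was the lowest of complex V at 84.1 TPM, and the soluble carrier Cycs stood at 39.9 TPM. On the mitochondrial chromosome mt-Co1, the catalytic subunit of complex IV, was highest at 16372 TPM and mt-Nd3 lowest at 1144 TPM. The mitochondrial ribosomal RNAs together gave 580.3 to 816 TPM in the 9 libraries, below every protein-coding gene of that chromosome. The order of mitochondrial genes holds for the rows as listed. Matching nuclear loci, described below, hold TPM of their own, and mt-Atp6 with its copy summed to 11697 to 20753 TPM.

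**Figure D1:**
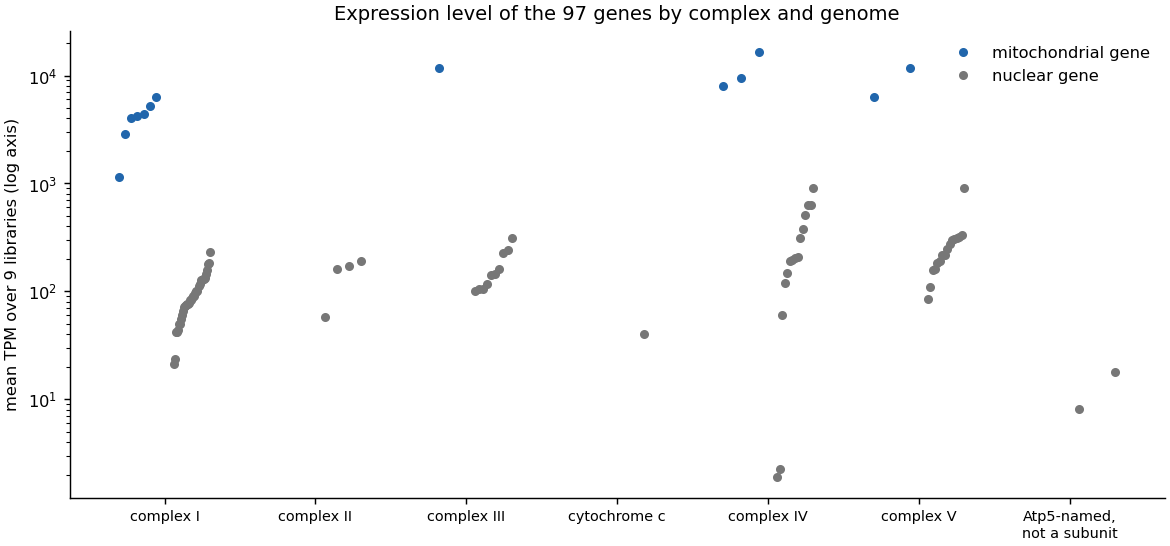
Mean TPM over the 9 libraries (log axis) of each of the 97 rows, placed by complex, with mitochondrial genes left of nuclear genes. Mitochondrial genes lie between 1144 and 16372 TPM, above all nuclear genes, whose highest mean is 914 TPM; the 2 lowest points of complex IV are Cox4i2 and Cox7a1.

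The largest difference among all 97 members in either comparison with Zscan4f cells was that of mt-Atp6. It stood at 1740.0, 1748 and 1746 TPM in Zscan4f libraries, at 9619, 9465 and 9947 in Zscan4f3A libraries and at 10007, 5812 and 7217 in control libraries. The 3 Zscan4f libraries lay close together and far below the other 6, while the control libraries were spread widely. The mean was 1745 ± 4.21 TPM in Zscan4f cells and 7679 ± 2135 in control cells (SD, n = 3 each), 0.227 times the control. On the log2(TPM + 1) scale mt-Atp6 fell by 2.101 (SE 0.16) against control, with an adjusted p of 5.9e-05 by limma with Benjamini-Hochberg adjustment over 15837 genes. Against Zscan4f3A it fell by 2.47 (SE 0.16, limma adjusted p = 3.5e-05). Zscan4f3A against control gave a log2 fold change of 0.37 (SE 0.16) and missed the threshold (limma adjusted p = 0.57). Both calls with Zscan4f held with each library left out, at limma adjusted p of 0.00059 or less.

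**Figure D2:**
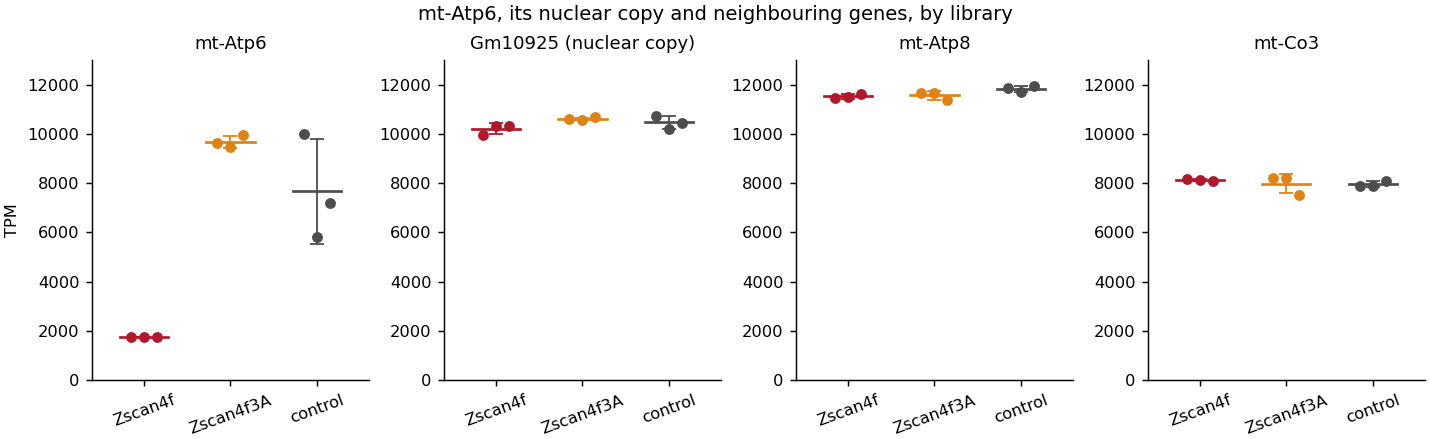
TPM of mt-Atp6, its nuclear copy Gm10925, mt-Atp8 and mt-Co3 in each library (points), with the group mean (line) and SD (bar), n = 3. In mt-Atp6 the Zscan4f libraries lie at 1740.0 to 1748 TPM and the others at 5812 to 10007; the other panels show group means that differ little.

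Genes beside mt-Atp6 on the same transcript did not show this. mt-Atp8 stood at 11459, 11489.9 and 11636 TPM with Zscan4f, 11659, 11664 and 11365 with Zscan4f3A and 11865, 11686 and 11931 in controls. mt-Co3, the next gene downstream and a core subunit of complex IV, stood at 8175, 8123 and 8101 TPM with Zscan4f, 8199, 8212 and 7533 with Zscan4f3A and 7907, 7875 and 8091 in controls. Neither passed the test against control in Zscan4f cells, with log2 fold changes of -0.04 (SE 0.02, limma adjusted p = 0.32) and 0.03 (SE 0.04, limma adjusted p = 0.61).

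The nuclear copy of mt-Atp6 did not follow it either. Gm10925 stood at 9957, 10335 and 10343 TPM in Zscan4f libraries, at 10614, 10574 and 10671 in Zscan4f3A libraries and at 10746, 10196 and 10463 in control libraries. Zscan4f and control libraries overlapped, and no Zscan4f library reached the lowest of Zscan4f3A. mt-Atp6 was thus 0.169 to 0.175 times its copy with Zscan4f, 0.895 to 0.932 times with Zscan4f3A and 0.570 to 0.931 times in controls. The sum of mt-Atp6 and Gm10925 was 11697, 12083 and 12089 TPM with Zscan4f, 20233, 20039 and 20617 with Zscan4f3A and 20753, 16008 and 17680 in controls. This sum was lower in every Zscan4f library than in the other 6, with a log2 fold change of -0.59 against control (limma adjusted p = 0.0011). Adding mt-Atp8 in place of the copy gave a log2 fold change of -0.55 (limma adjusted p = 0.00073). Between Zscan4f and Zscan4f3A the log2 fold change was -0.76 for the sum with the copy (limma adjusted p = 0.00046) and -0.68 for the sum with mt-Atp8 (limma adjusted p = 0.00038). Neither added locus differed much between groups, so these sums repeat the mt-Atp6 difference on a larger base and are not separate results. The part that the splitting of reads between these loci plays in the mt-Atp6 values was not tested.

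Other mitochondrial genes also have near-identical nuclear loci, and the plot of ratios by library sets them beside mt-Atp6. In all, 11 annotated nuclear loci matched 9 of the 13 mitochondrial genes at 95% identity or more over at least 100 bases, 7 of them side by side on chromosome 1. mt-Co2 was 0.997 to 1.00 times Gm28661, mt-Co3 0.997 to 1.00 times Gm28437 and mt-Nd4l 0.994 to 1.01 times Gm10222. The ratio of mt-Nd3 to Gm28438 was 0.910 to 0.953. These matches lack at most 3 bases of the mitochondrial gene, and their ratios lay within narrow ranges. Loci that match a part only gave 1.79 to 2.59 for mt-Co1 over Gm29216 and 1.49 to 1.89 for mt-Nd4 over Gm28439, with the lowest value in Zscan4f3A replicate 3 each time. The 7 loci on chromosome 1 together held 42157 to 44170 TPM in a library.

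**Figure D3:**
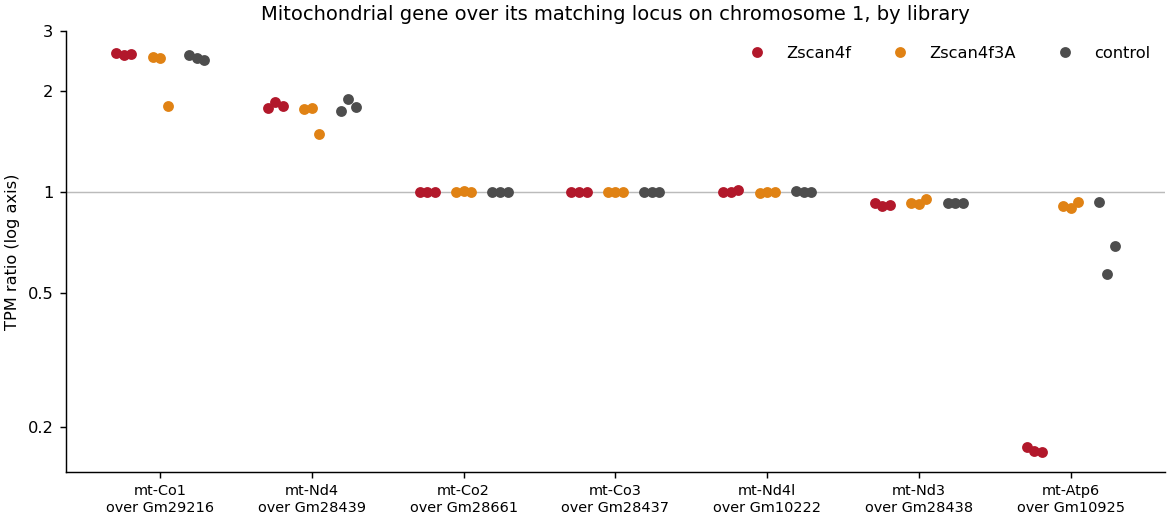
TPM of a mitochondrial gene divided by TPM of its matching locus on chromosome 1 (log axis), 1 point per library, for 7 pairs. The pairs of mt-Co2, mt-Co3 and mt-Nd4l lie at 0.994 to 1.01 in all groups, while mt-Atp6 over Gm10925 is 0.169 to 0.175 in Zscan4f libraries and 0.570 to 0.932 in the others.

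Of the other 12 mitochondrial genes, mt-Nd1 passed the test against control in Zscan4f cells. This core membrane subunit of complex I stood at 6714, 6697 and 6632 TPM with Zscan4f, 6300.4, 6345 and 5984 with Zscan4f3A and 6234, 5909 and 6112 in controls. All 3 Zscan4f libraries exceeded all others, by a log2 fold change of 0.14 (SE 0.03, limma adjusted p = 0.017) against control and 0.11 (SE 0.03, limma adjusted p = 0.055) against Zscan4f3A. The call against control was lost without any 1 Zscan4f replicate and without control replicate 2 or 3, with limma adjusted p up to 0.062, and also with no filter or no intensity trend. mt-Nd1 thus ranks as a small difference, 1.10 times the control mean.

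The remaining 11 mitochondrial genes differed little. Of complex I, mt-Nd2 ranged over 4268 to 4476 TPM, mt-Nd3 over 1040.1 to 1192, mt-Nd4 over 5031 to 5425, mt-Nd4l over 3844 to 4420.1 and mt-Nd5 over 3913 to 4166 in the 9 libraries. mt-Nd6, which is encoded on the other strand, stood at 2729, 2856 and 2734 TPM with Zscan4f, 2896, 2969 and 3317 with Zscan4f3A and 2983, 2657 and 2793 in controls. mt-Cytb, the cytochrome b of complex III, ranged over 11373 to 12125 TPM, mt-Co1 over 14723 to 17049.7 and mt-Co2 over 8842 to 9769.9. With Zscan4f against control, the log2 fold changes of all 12 genes other than mt-Atp6 lay between -0.07 and 0.14, with a median of -0.01 and 5 of 12 positive. Under quantile normalization 10 of 12 were positive, so no direction is given for them.

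Few nuclear members changed with Zscan4f, and those that passed the test did so by small amounts. Against control, 10 of all 97 members were called (limma adjusted p under 0.05), 8 higher and 2 lower, while 18.5% of all genes tested were called, 8.74% higher and 9.71% lower. At an unadjusted p under 0.05 by limma there were 23 members, while 31.1% of all genes were below it. The members' share of 10.3% was below that background. Between Zscan4f and Zscan4f3A, 8 members were called, 6 higher and 2 lower with Zscan4f, or 8.25% against 15.1% of all genes, 7.48% higher and 7.64% lower. Of the 84 nuclear rows, 7 were higher and 1 lower than in controls, and 6 were higher and 1 lower than with Zscan4f3A. The median log2 fold change of the nuclear rows was 0.04 against control, with 54 of 84 positive, beside -0.0029 over all genes with 49.5% positive. Against Zscan4f3A it was 0.05, with 56 positive, beside 0.0021 and 50.4% over all genes. The 2 comparisons share the Zscan4f libraries. Under the other scalings the nuclear median against control lay between 0.02 and 0.06, and the median over all genes moved too. Quantile normalization gave 0.02 beside 0.0074 over all genes, and FPKM gave 0.06 beside 0.015.

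The share of members whose groups did not overlap was close to the background against control and lower than it against Zscan4f3A. Against control, 29 members lay wholly higher and 7 wholly lower with Zscan4f, together 37.1%, against 38.2% of all genes, 19.0% higher and 19.2% lower. Against Zscan4f3A, 22 lay higher and 5 lower, together 27.8%, against 34.8% of all genes, 18.3% higher and 16.5% lower. Spread within groups was small: the median coefficient of variation of the nuclear members was 4.27% in Zscan4f libraries, 5.78% in Zscan4f3A libraries and 5.19% in control libraries, beside 7.57%, 8.96% and 7.67% over all genes in the same groups. Members and all genes were not matched for expression level in this comparison.

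**Figure D4:**
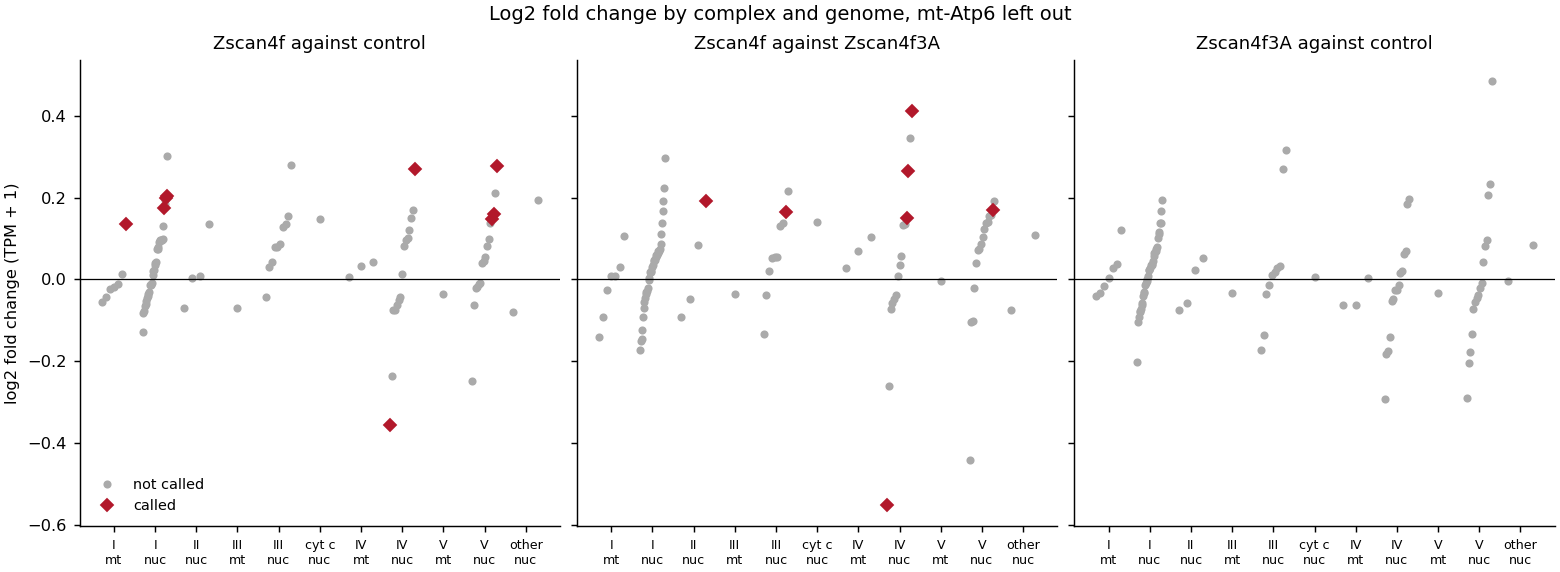
Log2 fold change on the log2(TPM + 1) scale of each member, by complex and genome (mt mitochondrial, nuc nuclear), in the 3 comparisons; red diamonds are called at limma adjusted p under 0.05. mt-Atp6 is left out, since its -2.101 and -2.47 lie far below the axis. Most points lie near 0, and called nuclear members other than Cox6b2 lie at 0.15 or above.

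By complex, the summed level of nuclear genes with Zscan4f exceeded that of both other groups in complexes III, IV and V. Complex III summed to 1718, 1708 and 1732 TPM with Zscan4f, 1648, 1669 and 1594 with Zscan4f3A and 1617, 1671 and 1599 in controls. Complex IV summed to 4627, 4749 and 4649 TPM with Zscan4f, 4464, 4462 and 4162 with Zscan4f3A and 4592, 4453 and 4454 in controls. Complex V summed to 4499, 4381 and 4428 TPM with Zscan4f, 4352, 4267 and 4224 with Zscan4f3A and 4249, 4252 and 4257 in controls. In these sums the Zscan4f libraries lay above the other 6 with no overlap, but for complex IV this rested on Ndufa4. Without it, complex IV summed to 3553, 3714 and 3597 TPM with Zscan4f, 3632, 3611 and 3459.5 with Zscan4f3A and 3734, 3589 and 3554 in controls, and all groups overlapped. Complex I, at 3413, 3547 and 3456 TPM with Zscan4f, 3423, 3439 and 3356 with Zscan4f3A and 3398, 3376 and 3332 in controls, overlapped only with Zscan4f3A. Complex II, at 595, 586 and 585 TPM with Zscan4f, 584, 573 and 558 with Zscan4f3A and 588, 587 and 569.6 in controls, overlapped with controls. These sums include the second rows on patch scaffolds and lean on the most abundant genes. They were not rescaled to TPM outside the mitochondrial chromosome and its nuclear matches, which was higher in every Zscan4f library than in the others. For complex V, Zscan4f replicate 2 (4381 TPM) and Zscan4f3A replicate 1 (4352 TPM) had 866521 and 859086 TPM outside. Gaps as small as this can close on that base, so the lack of overlap holds for TPM as listed.

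In complex I, 3 of 36 nuclear rows were called against control (8.33%, below the 18.5% of all genes), all higher with Zscan4f. All 3 are accessory subunits, which surround the catalytic core. Ndufb7, of the distal membrane arm, stood at 145, 156 and 157 TPM with Zscan4f, 154, 138 and 147 with Zscan4f3A and 127, 131 and 141 in controls. The Zscan4f and control libraries did not overlap, while those of Zscan4f and Zscan4f3A did. Its log2 fold change against control was 0.20 (SE 0.06, limma adjusted p = 0.042). Ndufc1, a small membrane-arm subunit, stood at 25.1, 26.2 and 25.1 TPM with Zscan4f, 23.3, 24.6 and 23.9 with Zscan4f3A and 23.4, 20.6 and 22.1 in controls, a log2 fold change of 0.20 (SE 0.06, limma adjusted p = 0.043) against control. Ndufa9, which sits where the matrix arm meets the membrane arm, stood at 97.9, 108 and 106 TPM with Zscan4f, 98.6, 98.9 and 90.5 with Zscan4f3A and 88.9, 93.5 and 92.6 in controls, a log2 fold change of 0.18 (SE 0.05, limma adjusted p = 0.049). With a library left out, Ndufb7 kept its call in 5 of 9 fits and lost it without Zscan4f replicate 2 or 3 or control replicate 1 or 2. Ndufa9 kept it in 2, without Zscan4f replicate 1 or Zscan4f3A replicate 3, and Ndufc1 in 1, without control replicate 1. The highest limma adjusted p were 0.13 for Ndufb7, 0.15 for Ndufa9 and 0.13 for Ndufc1. Without the filter on low genes all 3 calls were lost. Quantile normalization or a fit with no intensity trend also ended those of Ndufb7 and Ndufa9, rescaling to genes outside the mitochondrial chromosome those of Ndufa9 and Ndufc1, median-of-ratios scaling that of Ndufa9 and a fit of the 2 groups alone that of Ndufc1.

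Members named below outside the rule for named genes (Ndufs3, Ndufs4, Sdha, Cox6c, Atp5d, Atp5j, Ndufs5 and Ndufa12) were picked after their values were seen. None of the 8 rows of the matrix-arm core of complex I, among them both rows of Ndufs3, was called. The rows of Ndufs3 stand for 1 gene. Log2 fold changes of the 8 rows against control were all positive, at 0.0099 to 0.19 with a median of 0.09. That is a direction without a call, beside 64.3% positive over the nuclear rows and 49.5% over all genes. Ndufs4, an accessory subunit of the matrix arm, had the largest log2 fold change of the complex against control at 0.30, with an adjusted p in limma of 0.0504 that just missed the threshold. It stood at 49.2, 52.7 and 45.8 TPM with Zscan4f, 38.8, 43.7 and 43.5 with Zscan4f3A and 35.0, 43.6 and 40.9 in controls, and its Zscan4f libraries lay above all others. Against Zscan4f3A no complex I row was called, by limma, with 3 at an unadjusted p under 0.05, where 29.5% of all genes were below it.

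Complex II showed 1 call among 4 rows, Sdhd against Zscan4f3A, where 15.1% of all genes were called. This membrane anchor subunit stood at 174, 174 and 173 TPM with Zscan4f, 152, 158 and 145 with Zscan4f3A and 155, 166 and 154 in controls. The Zscan4f libraries lay above all others, with a log2 fold change of 0.19 (SE 0.04, limma adjusted p = 0.020) against Zscan4f3A and 0.13 (SE 0.04, limma adjusted p = 0.066) against control. The flavoprotein Sdha ranged over 158 to 176 TPM in the 9 libraries, Sdhb over 179 to 205 and Sdhc over 54.7 to 61.1. The call of Sdhd was lost without any 1 Zscan4f replicate or Zscan4f3A replicate 1, at limma adjusted p up to 0.061, and under quantile normalization or with no intensity trend.

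In complex III the only called member was the core protein Uqcrc2, again against Zscan4f3A, 1 of 10 nuclear rows (beside the 15.1% of all genes). It stood at 166, 176 and 173 TPM with Zscan4f, 158, 152 and 149 with Zscan4f3A and 158, 151 and 162 in controls. Its log2 fold change was 0.16 (SE 0.04, limma adjusted p = 0.030) against Zscan4f3A and 0.13 (SE 0.04, limma adjusted p = 0.064) against control. The call was lost without Zscan4f replicate 2 or 3 or Zscan4f3A replicate 2 or 3, at limma adjusted p up to 0.10, and under quantile normalization, with no filter, with no intensity trend or with the 2 groups alone. Uqcrb, a small subunit, had the next smallest p of the complex against control, at 263, 251 and 268 TPM with Zscan4f, 246, 253 and 213 with Zscan4f3A and 233, 228 and 239.6 in controls (limma adjusted p = 0.13). Cyc1 was less even, at 107, 112 and 95.6 TPM with Zscan4f, 108, 88.8 and 129 with Zscan4f3A and 91.5, 86.7 and 80.2 in controls. The mobile carrier Cycs stood at 42.2, 43.8 and 41.9 TPM with Zscan4f, 39.3, 41.6 and 35.1 with Zscan4f3A and 35.5, 38.9 and 41.0 in controls, a log2 fold change of 0.15 (SE 0.07, limma adjusted p = 0.22) against control. Zscan4f libraries exceeded all others for Cycs, but the test was not passed.

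Complex IV held 4 of the 12 called nuclear genes. Against control, 2 of 15 rows were called (13.3%, beside the 18.5% of all genes). Against Zscan4f3A, 4 of 15 were called (26.7%, beside the 15.1% of all genes), and 3 of these calls held with each library left out. With so few rows, these shares do not set complex IV apart. Ndufa4 stood at 1074, 1036 and 1052 TPM with Zscan4f, 833, 851 and 702 with Zscan4f3A and 858, 863 and 899 in controls. Its Zscan4f libraries lay well above the other 6, at 1.21 times the control mean and 1.33 times the Zscan4f3A mean. The log2 fold change was 0.27 (SE 0.07, limma adjusted p = 0.022) against control and 0.41 (SE 0.07, limma adjusted p = 0.0040) against Zscan4f3A. Between Zscan4f and Zscan4f3A the call held with each library left out, whereas against control it was lost without any 1 Zscan4f replicate and without control replicate 1 or 2, at limma adjusted p up to 0.072, and with no filter.

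Cox7b, a small subunit encoded on the X chromosome, was called against Zscan4f3A. It stood at 159, 159 and 164 TPM with Zscan4f, 136, 133 and 132 with Zscan4f3A and 147, 151 and 158 in controls. The groups did not overlap in any pair, with Zscan4f3A lowest. Its log2 fold change with Zscan4f was 0.26 (SE 0.04, limma adjusted p = 0.0018) against Zscan4f3A and 0.08 (SE 0.04, limma adjusted p = 0.16) against control. Zscan4f3A against control gave -0.18 (SE 0.04, limma adjusted p = 0.30).

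The isoform pair Cox6b1 and Cox6b2 moved in opposite directions between the Zscan4f forms. Cox6b1, the widely expressed form of this subunit on the intermembrane side, stood at 331, 320.3 and 337 TPM with Zscan4f, 289, 308 and 294 with Zscan4f3A and 305, 309 and 308 in controls. Cox6b2, known as a testis form, stood at 51.4, 48.6 and 43.1 TPM with Zscan4f, 70.0, 65.6 and 75.4 with Zscan4f3A and 63.7, 66.1 and 54.3 in controls. The Zscan4f libraries were thus the highest for Cox6b1 and the lowest for Cox6b2, with no overlap with the other 6. For Cox6b1 the log2 fold change was 0.15 (SE 0.03, limma adjusted p = 0.019) against Zscan4f3A and 0.10 (SE 0.03, limma adjusted p = 0.074) against control. Cox6b2 fell by 0.55 (SE 0.09, limma adjusted p = 0.0048) against Zscan4f3A and by 0.36 (SE 0.09, limma adjusted p = 0.029) against control. The Cox6b1 call was lost without Zscan4f replicate 1 or 3 or Zscan4f3A replicate 1, at limma adjusted p up to 0.075, and under quantile normalization, with no intensity trend or with the 2 groups alone. That of Cox6b2 against control was lost without Zscan4f replicate 2 or 3 or control replicate 1 or 2, at limma adjusted p up to 0.098, and with no filter, while against Zscan4f3A it held throughout. Cox6b2 made up 12.7% ± 1.15 of the pair's TPM in Zscan4f cells, 19.1% ± 1.44 in Zscan4f3A cells and 16.6% ± 1.42 in control cells (SD, n = 3 each).

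Other tissue forms of complex IV were near the floor or listed at 0. Cox4i2, known from lung, ranged over 1.70 to 3.32 TPM beside 592 to 677 for Cox4i1, and Cox7a1, the heart and muscle form, over 0.921 to 2.92 TPM beside 77.8 to 135 for Cox7a2. Cox7a1 was the member just inside the filter. Just outside was Cox6a2, another heart and muscle form, at 0 to 1.27 TPM and with 1 library at 1 TPM or more, beside 589 to 676 for Cox6a1. Cox8b and Cox7b2 were listed at 0 in all libraries and Cox8c reached 0.515 TPM, beside 489 to 541 for Cox8a. Cox7a2l, a factor in the joining of complexes into supercomplexes, ranged over 186 to 221 TPM, and a locus called Gm6969 that matches 201 of its bases exactly reached 153 TPM. Cox6c, a further subunit, stood at 182, 189 and 191 TPM with Zscan4f, 184, 181 and 175 with Zscan4f3A and 237, 191 and 237 in controls. Control replicate 2 was close to the other groups there, and no comparison passed the test.

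**Figure D5:**
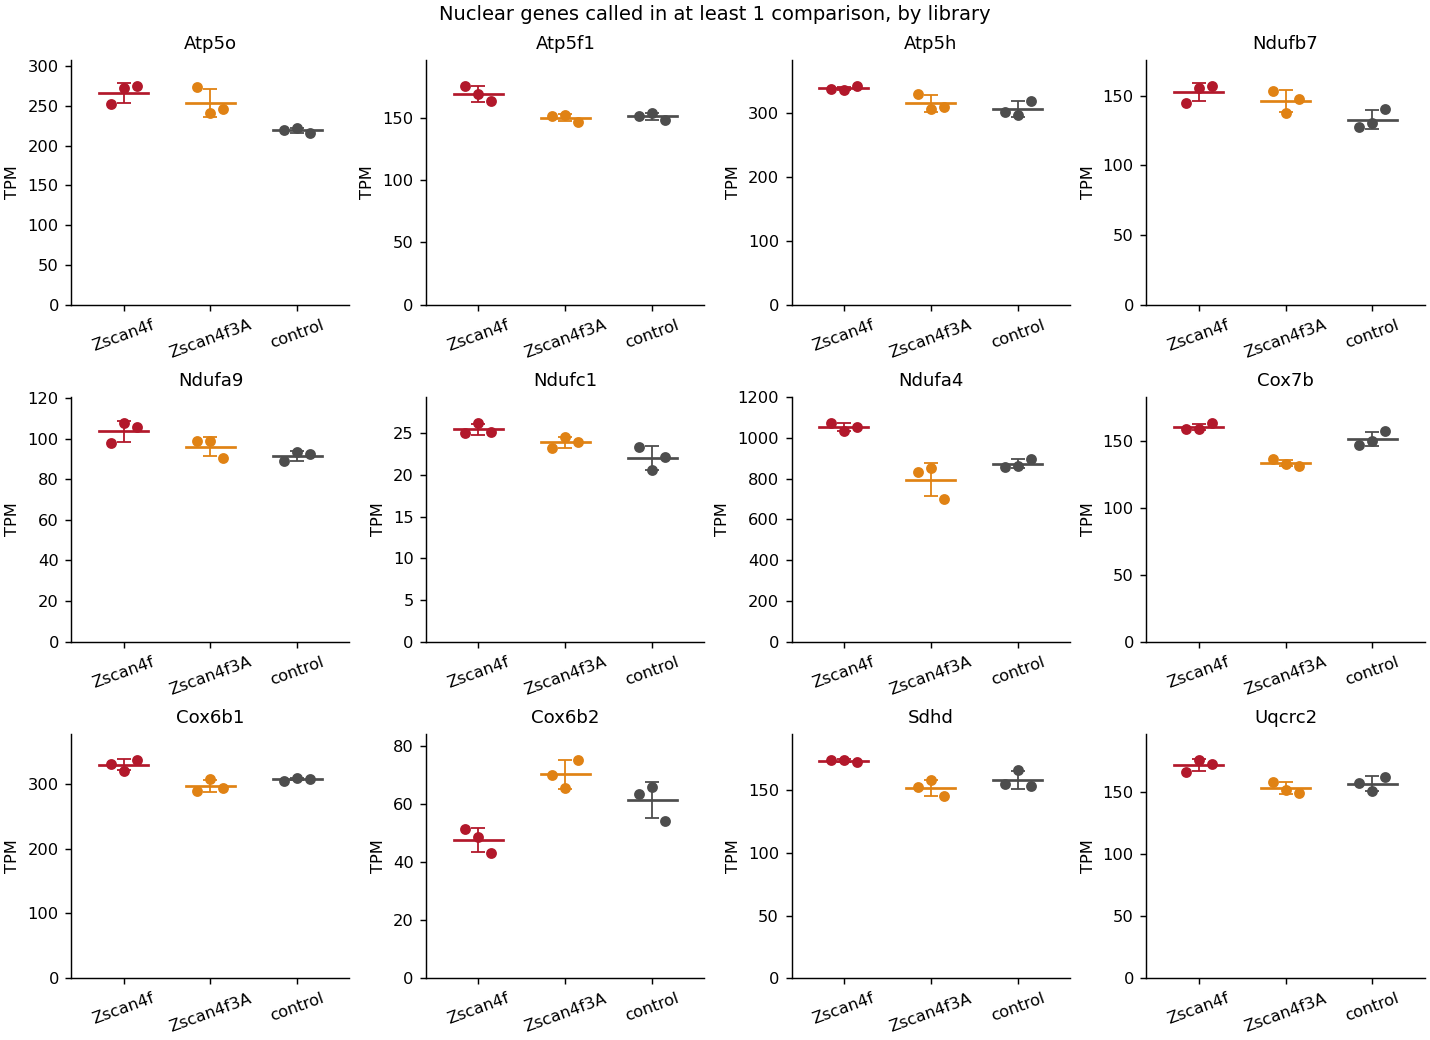
TPM of the 12 nuclear genes called in at least 1 comparison, by library (points), with group mean (line) and SD (bar), n = 3; each axis starts at 0. Zscan4f libraries are the highest in all panels but Atp5o, Ndufb7 and Ndufa9, where they overlap Zscan4f3A, and Cox6b2, where they are the lowest.

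In complex V, 3 of 16 nuclear rows were called against control, and this share of 18.8% lies at the 18.5% of all genes. The 3 encode subunits of the peripheral stalk, which holds the F1 head in place. Atp5o, which links the stalk to the head and is also called OSCP, stood at 252, 273 and 274 TPM with Zscan4f, 273, 241 and 246 with Zscan4f3A and 219.7, 222 and 216 in controls. Both overexpressing groups lay above the controls without overlap, and they overlapped each other. The log2 fold change was 0.28 (SE 0.05, limma adjusted p = 0.0080) for Zscan4f against control, and the call held with each library left out. For Zscan4f3A against control it was 0.21 (SE 0.05, limma adjusted p = 0.41), and between Zscan4f and Zscan4f3A 0.07 (SE 0.05, limma adjusted p = 0.42). Whether the response to Zscan4f3A is smaller than that to Zscan4f is thus not shown for Atp5o.

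Atp5f1, the stalk subunit b, stood at 175, 169 and 163 TPM with Zscan4f, 152, 152 and 147 with Zscan4f3A and 151, 154 and 149 in controls. Here the Zscan4f libraries lay above both other groups, by a log2 fold change of 0.16 (SE 0.04, limma adjusted p = 0.017) against control and 0.17 (SE 0.04, limma adjusted p = 0.016) against Zscan4f3A. Atp5f1 overlaps Wdr77 on the other strand, which stood at 22.0, 36.6 and 22.2 TPM with Zscan4f, 17.6, 19.95 and 55.1 with Zscan4f3A and 21.5, 19.6 and 21.9 in controls. Whether the counting used strand is not given, so reads of the overlap cannot be assigned with certainty. Atp5h, the stalk subunit d, stood at 338, 337 and 342 TPM with Zscan4f, 331, 307 and 310.2 with Zscan4f3A and 303, 297 and 320.2 in controls, a log2 fold change of 0.15 (SE 0.04, limma adjusted p = 0.036) against control. The Atp5h call was lost without any 1 Zscan4f replicate and without control replicate 1 or 2, at limma adjusted p up to 0.12, and under quantile normalization, rescaling to genes outside the mitochondrial chromosome, no filter or no intensity trend. That of Atp5f1 was lost without Zscan4f replicate 1 or 2 in both comparisons and, against control, also without control replicate 1 or 3, at limma adjusted p up to 0.060, and in both with no intensity trend. The remaining stalk gene Atp5j, subunit F6, stood at 181, 164 and 149 TPM with Zscan4f, 150.5, 154 and 143 with Zscan4f3A and 153, 151 and 219.8 in controls, with control replicate 3 apart.

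The rotor and the head of complex V showed no call. The c ring is built from identical copies of a proteolipid that 3 genes encode: Atp5g1 ranged over 73.9 to 98.9 TPM, Atp5g2 over 292 to 356 and Atp5g3 over 263 to 333. Their log2 fold changes with Zscan4f against control were -0.01, 0.08 and 0.10. Atp5b, at 923, 959 and 943 TPM with Zscan4f, 911, 888 and 884 with Zscan4f3A and 922, 909 and 889.5 in controls, had a log2 fold change of 0.05 (SE 0.03, limma adjusted p = 0.23) with Zscan4f against control. Atp5d, the delta subunit of the central stalk, stood at 158, 168 and 176 TPM with Zscan4f, 188, 165 and 376 with Zscan4f3A and 162, 163 and 161 in controls, so its spread lay in Zscan4f3A replicate 3. Atp5sl and Atp5s carry Atp5 names without being subunits, and neither was called, at 15.7 to 20.3 and 5.42 to 10.3 TPM.

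Zscan4f3A against control gave 0 calls among the 97 members by limma, beside 5 calls among all 15837 genes (0.0316%, with 0.0189% higher and 0.0126% lower). At an unadjusted p under 0.05 there were 7 members, against 8.77% of all genes, and the alternatives gave 0 calls except 1, Cox6c, without control replicate 2. Log2 fold changes ran from -0.29 for Cox6c to 0.48 for Atp5d, with a median of 0.0032 beside -0.012 over all genes. Non-overlapping groups were found for 4 members higher and 8 lower with Zscan4f3A, 12.4% against 15.4% of all genes, 6.29% higher and 9.09% lower. Zscan4f3A replicate 3 stood at 2.13 times the mean of replicates 1 and 2 for Atp5d, the highest such ratio of the members, and at 0.556 times for Atp5s, the lowest. That library's low depth stands beside these values, and its part in them was not tested.

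Genes that build or serve the chain were examined as lists. Among 24 assembly factors of complex IV, Coa3 and Coa5 were higher with Zscan4f than in controls, and none lower. Coa3 stood at 60.1, 58.4 and 60.3 TPM with Zscan4f, 54.9, 62.1 and 59.7 with Zscan4f3A and 52.5, 52.9 and 53.4 in controls, a log2 fold change of 0.17 (SE 0.05, limma adjusted p = 0.049) against control. Coa5 had a log2 fold change of 0.16 (SE 0.04, limma adjusted p = 0.028). Of 16 tested factors of complex I none was called against control by limma, with 3 at an unadjusted p under 0.05. Aifm1, a flavoprotein needed for complex I biogenesis, was higher with Zscan4f than with Zscan4f3A (log2 fold change 0.37, SE 0.10, limma adjusted p = 0.047). Of 4 factors of complex II, Sdhaf4 fell against control, at 29.9, 31.9 and 32.1 TPM with Zscan4f, 33.1, 33.8 and 32.4 with Zscan4f3A and 37.3, 34.1 and 38.4 in controls (log2 fold change -0.22, SE 0.06, limma adjusted p = 0.029). Lists for complex III (7 tested), complex V (4 tested) and subunits whose names the choice of members missed (5 tested) held 0 calls by limma in the comparisons with Zscan4f, with 1, 0 and 1 genes at an unadjusted p under 0.05 against control.

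Coenzyme Q synthesis showed 2 of 11 tested genes higher with Zscan4f than in controls and none lower. These were Pdss1, which makes the isoprenoid tail, with a log2 fold change of 0.39 (SE 0.10, limma adjusted p = 0.032), and Coq10a, a lipid-binding chaperone of coenzyme Q, at 0.32 (SE 0.08, limma adjusted p = 0.019). The median of the 11 was 0.19, beside -0.0029 over all genes. Among 28 tested genes of mitochondrial transcription and RNA handling, 2 were higher and 1 lower. Rexo2, an oligoribonuclease that clears short RNA in mitochondria, stood at 315, 303 and 305 TPM with Zscan4f, 244, 246 and 229.7 with Zscan4f3A and 236, 242 and 241 in controls, a clear gap with log2 fold changes of 0.36 (SE 0.04) against each. Its limma adjusted p was 0.00023 against control and 0.00038 against Zscan4f3A. Fastkd5, needed for processing of mitochondrial transcripts that lack flanking tRNAs, stood at 14.3, 14.97 and 14.9 TPM with Zscan4f, 11.4, 10.8 and 11.6 with Zscan4f3A and 10.8, 12.1 and 12.3 in controls. Its log2 fold change was 0.31 (SE 0.07, limma adjusted p = 0.015) against control and 0.36 (SE 0.07, limma adjusted p = 0.0091) against Zscan4f3A. Mterf3, a negative regulator of mitochondrial transcription, fell by 0.39 (SE 0.10, limma adjusted p = 0.023) against control, at 32.0, 28.5 and 35.0 TPM with Zscan4f, 42.1, 36.9 and 33.3 with Zscan4f3A and 42.7, 40.5 and 42.2 in controls. Of 10 tested regulators, 1 was called against control, the nuclear receptor Esrrg. It stood at 0.818, 0.450 and 0.482 TPM with Zscan4f, 1.119, 0.929 and 0.997 with Zscan4f3A and 1.38, 1.1204 and 1.14 in controls. It passed the filter through the other groups alone, so its lower values with Zscan4f are given as a description. With 1 library left out in turn, Rexo2 kept both calls in 9 of 9 fits and Fastkd5 kept its call against Zscan4f3A in 9 and that against control in 7. The other calls of these lists were kept in 1 to 6 of 9 fits: Coq10a in 6, Pdss1 in 5, Coa5, Sdhaf4 and Mterf3 in 4 each, Coa3 in 2, and Esrrg and Aifm1 in 1 each. Leaving out Zscan4f replicate 2 ended each of these calls other than that of Rexo2 and that of Fastkd5 against Zscan4f3A. No gene of these lists was called for Zscan4f3A against control. Shares called in these lists were 0% to 25.0% against control, beside the 18.5% of all genes.

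Promoters of the nuclear genes were searched for motifs known from this gene set. RefSeq promoters (GRCm38.p6, windows of 300 bases around each start) were found for 68 of 81 nuclear genes, and both strands were searched for the NRF1 motif, CCGGAAGT (ETS factors such as GABP) and AAGATGGCG (YY1). NRF1 letters were found for 5 genes, ETS letters for 5 and YY1 letters for 8, 18 genes in all with no gene holding more than 1 kind. Counted by promoter, 25.7% of 74 held at least 1 motif, against 6.05% of all 32851 promoters, with 12.2% against 1.40% for YY1 and 6.76% against 0.971% for NRF1. For ETS letters the shares were 6.76% and 3.89%. This background holds all RefSeq promoters, whether or not the gene was expressed here, and was not matched for base content. The YY1 letters hold an ATG, and whether such sites lie at translation starts was not tested. Of the 12 called nuclear genes, Uqcrc2 had no promoter found and was not searched. Among the others these letters were found for Ndufa9, Ndufc1 and Atp5h, whose sites are shown in capitals.
Ndufa9, chr6:126849096-126849125, minus strand: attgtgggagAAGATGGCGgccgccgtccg
Ndufc1, chr3:51408914-51408943, minus strand: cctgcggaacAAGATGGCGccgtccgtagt
Atp5h, chr11:115419920-115419998, minus strand: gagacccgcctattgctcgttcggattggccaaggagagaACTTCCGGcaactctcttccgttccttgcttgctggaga
In Ndufa9 and Ndufc1 the YY1 letters begin 29 and 22 bases after the annotated start, and in Atp5h the ETS letters lie before it on the strand opposite to the gene. A match of letters is a description and not evidence of binding.

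Near-identical loci elsewhere could share reads with nuclear members as well. Of 81 nuclear genes, 21 matched another annotated locus at 95% identity or more over at least 150 bases, and for 13 of them such a locus reached 1 TPM in at least 1 library. For called members, such loci reached at most 1.39 TPM (Gm10250, which matches Atp5h) and 1.27 TPM (Gm13771, which matches Cox7b). Values of other members are uncertain for this reason, among them Ndufs5, Ndufa12, Cycs and Ndufs3. Their matches BC002163, Gm15920, Gm10053 and Gm12251 averaged 77.8, 23.6, 12.1 and 10.9 TPM.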

How the data were processed

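RNA-seq was analysed from 9 tables, 1 per library, in 3 groups of 3 taken from the sample titles. Reads were aligned with HISAT2 2.1.0 and quantified with StringTie, per the submitters' processing notes. The deposited tables hold TPM, FPKM and mean coverage per gene from StringTie, per the file headers; they hold no read counts. The authors scaled TPM to a fixed total per library, so the aligned sequence of a library was estimated as the most frequent ratio of deposited coverage to deposited FPKM over its genes, and FPKM also served as an alternative. No source used here names the build; all 37 mitochondrial genes and 97.7% of matched gene IDs have GRCm38 coordinates. Entries sharing a gene ID (15 IDs) were summed.

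Genes with at least 1 TPM in at least 3 of 9 libraries were fitted with limma 3.58.1 (R 4.3.3) on log2(TPM + 1), with group means over all 9 libraries, an intensity trend, 2-sided tests and Benjamini-Hochberg adjustment over 15837 genes; fold changes on this scale understate those of low genes. A call is an adjusted p under 0.05. Depth limits low genes most, and the tables give no counting intervals. Named genes were, per complex, the 2 with the smallest p for Zscan4f against control, the highest and lowest in mean TPM, isoform families, members just inside and outside the filter, all mitochondrial genes, every called member and called list genes (up to 4 a list). Members, lists and complex assignments were chosen with earlier results of these data known. Near-identical loci were found with blastn 2.17.0. The fit was tested on simulated data. Replicate numbers did not pair libraries. Alternatives covered scaling, filters, pseudocount, model settings and leaving out each library; summing the patch scaffold copies was chosen after seeing the data.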

Additional observations from a re-analysis of the deposited data

Results flagged for a closer look

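The responses to Zscan4f and Zscan4f3A, both set against the same controls, differed for 8 of 97 members by a test of the difference itself. That share, 8.25%, was below the 15.1% of all genes. The log2 fold change between Zscan4f and Zscan4f3A was -2.47 for mt-Atp6, -0.55 for Cox6b2, 0.41 for Ndufa4, 0.26 for Cox7b, 0.19 for Sdhd, 0.17 for Atp5f1, 0.16 for Uqcrc2 and 0.15 for Cox6b1. That of mt-Atp6 was -0.76 when summed with its nuclear copy and -0.68 when summed with mt-Atp8. Of these 8, mt-Atp6, Cox6b2, Ndufa4 and Atp5f1 were also called for Zscan4f against control, and none for Zscan4f3A against control. Among the listed genes around the chain, the difference was 0.37 for Aifm1, 0.36 for Rexo2 and 0.36 for Fastkd5.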

How the results depend on the processing

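The number of members called for Zscan4f against control was 10, against 3 with no filter on low genes, 5 with no intensity trend and 16 with library quality weights, and 2 to 15 with 1 library left out. It was 2 without Zscan4f replicate 2, 4 without Zscan4f replicate 3 or control replicate 1, and 6 without Zscan4f replicate 1 or control replicate 2 or 3. For Zscan4f against Zscan4f3A it was 8, against 4 with no trend and 5 to 10 with 1 library left out, with 5 without any 1 Zscan4f replicate. For Zscan4f3A against control it was 0, and 0 to 1 with 1 library left out, the 1 being Cox6c without control replicate 2. A replicate block gave 7, 7 and 0 calls in these comparisons, without those of Ndufb7, Ndufa9, Ndufc1 and Atp5h against control and of Cox6b1 and Uqcrc2 against Zscan4f3A; correlations of same-numbered libraries were -0.079 to 0.053. mt-Nd4, not called for Zscan4f against Zscan4f3A at a log2 fold change of -0.03, stood at 0.25 under quantile normalization (limma adjusted p = 0.035); the cause was not tested. Of 18 called results, 6 held in all 13 settings that keep every library, and 6 with each of 9 libraries left out. Zscan4f3A replicate 3 had the lowest depth, and the part of that depth in the comparisons with its group was not tested. With this library left out, 16 of the 18 called results were kept.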
